A study of Mus musculus with 4 samples.

Results

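The genes that fuse and divide mitochondria were followed in the RNA-Seq data of HT-22 cells, an immortalized mouse line of hippocampal neuronal origin. They are 10 of the 11502 gene symbols that had at least 1 deposited transcript: Mfn1, Mfn2 and Opa1 for fusion, grouped with Oma1, which encodes a protease that acts on OPA1, and Dnm1l, Fis1, Mff, Mief1, Mief2 and Mtfr1 for fission. They were named by their known function, but chosen with earlier results of these data known. Every deposited transcript of each was used.

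The study asked how PGC-1α, a transcriptional coactivator of mitochondrial biogenesis, alters neurons under ischemia-like stress. There were 4 groups. Ctrl cells carried negative control lentivirus, and PGC-A cells carried lentivirus for PGC-1α, both after selection with puromycin. Ctrl-OGD and PGC-OGD were the corresponding cells after oxygen and glucose deprivation (OGD), given for 2 h in a hypoxia chamber without serum and glucose, with RNA taken after a further 24 h of normal culture. Each of the 4 was represented by 1 library. No value below therefore has an error, a replicate check or a p value, and a difference between cultures that has other sources cannot be told apart from the condition. In bulk RNA, fewer cells that express a gene and less of its RNA per cell cannot be told apart either.

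The deposited numbers were read as FPKM, a count of fragments divided by the length of the transcript and the size of the library, so that levels of different genes are per length. The column totals lay between 331892 and 353381, and the number of reads behind them is unknown. Ppargc1a, which encodes PGC-1α, had a summed FPKM of 0.900 in Ctrl, 35.1 in PGC-A, 0.103 in Ctrl-OGD and 8.41 in PGC-OGD. The overexpressed gene was thus high in both libraries labelled as overexpressing, and at a lower level after OGD than without it. Esrra, which encodes the nuclear receptor partner ERRα, had 4.73, 8.75, 5.13 and 7.30 FPKM in the same order. Of the 11 neuronal markers, 2 had values here, with a summed level between 0.668 and 3.70 FPKM, whereas the fibroblast markers Col1a1, Col1a2 and Pdgfra summed to between 432 and 523 FPKM. The astrocyte, microglia and oligodendrocyte markers that had values summed to at most 5.62 FPKM per cell type, and none of the 3 endothelial markers had a value. Every deposited transcript reached at least 0.500 FPKM in some library, so a marker without a value may be low and was not measured at 0. The neuronal label of the line therefore rests on its origin and not on these markers, and its use as a model of a neuron is limited to that extent.

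Mitochondria join by fusion and separate by fission, and the balance of both sets the shape of the network. Mitofusins tether and fuse outer membranes, OPA1 fuses inner membranes and holds the cristae, and the stress protease OMA1 cleaves OPA1, which limits fusion. For fission, the cytosolic GTPase DRP1, the product of Dnm1l, is recruited by outer membrane adaptors (MFF, FIS1 and the MiD proteins encoded by Mief1 and Mief2) and constricts the organelle. Neurons depend on both to place mitochondria in axons and at synapses.

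Several of these genes are known for alternative coding exons. Among the members, 7 coding exons of a multiple of 3 bases were held by a transcript with a mean of 1 FPKM or more and skipped by another deposited transcript, in Dnm1l, Opa1 and Mff. The levels of the transcripts with and without them are described beside each gene. The exons are written 5′ to 3′ on the transcript strand, with the exon in capitals and the last 12 bases before and the first 12 bases after it in lower case, from the GENCODE M21 transcripts on GRCm38. They are between 11 and 53 codons long, so that including one keeps the reading frame.
Dnm1l 39-base exon (Dnm1l-202, chr16:16342697-16342735, minus strand): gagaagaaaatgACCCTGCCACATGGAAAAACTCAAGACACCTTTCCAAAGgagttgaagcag
Dnm1l 78-base exon (Dnm1l-203, chr16:16318764-16318841, minus strand): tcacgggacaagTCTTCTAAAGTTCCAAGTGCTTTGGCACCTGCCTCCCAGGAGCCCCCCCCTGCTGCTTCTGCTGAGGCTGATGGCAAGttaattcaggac
Dnm1l 33-base exon (Dnm1l-203, chr16:16318445-16318477, minus strand): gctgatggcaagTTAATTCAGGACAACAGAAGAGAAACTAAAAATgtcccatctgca
Opa1 54-base exon (Opa1-208, chr16:29588823-29588876, plus strand): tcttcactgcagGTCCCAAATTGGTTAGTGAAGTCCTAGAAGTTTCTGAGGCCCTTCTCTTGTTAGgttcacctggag
Opa1 111-base exon (Opa1-208, chr16:29597586-29597696, plus strand): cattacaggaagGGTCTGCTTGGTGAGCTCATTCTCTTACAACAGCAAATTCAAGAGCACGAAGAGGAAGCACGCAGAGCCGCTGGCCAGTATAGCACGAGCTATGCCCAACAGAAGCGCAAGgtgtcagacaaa
Mff 60-base exon (Mff-208, chr1:82747083-82747142, plus strand): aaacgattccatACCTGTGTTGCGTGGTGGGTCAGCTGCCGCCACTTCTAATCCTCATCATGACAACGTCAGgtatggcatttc
Mff 159-base exon (Mff-202, chr1:82741818-82741976, plus strand): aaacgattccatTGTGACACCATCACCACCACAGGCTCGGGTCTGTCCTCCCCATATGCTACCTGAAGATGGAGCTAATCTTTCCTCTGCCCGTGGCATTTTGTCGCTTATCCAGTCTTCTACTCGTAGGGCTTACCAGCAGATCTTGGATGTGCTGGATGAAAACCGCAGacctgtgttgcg

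All 10 genes reached a mean of 1 FPKM, the level from which genes were compared (10604 of the 11502 symbols). On the summed FPKM, Mff, a DRP1 adaptor, was the highest member in every library, between 46.8 and 56.7 FPKM. It stood between percentiles 85.5 and 88.3 of the compared genes. This rank depends on transcripts with an incomplete coding region. Without them, Mff had 24.6 FPKM in Ctrl, 22.6 in PGC-A, 28.4 in Ctrl-OGD and 37.8 in PGC-OGD. Fis1 was then higher in Ctrl (30.1 FPKM) and Ctrl-OGD (36.3 FPKM), and Dnm1l in PGC-A (36.4 FPKM) and PGC-OGD (40.2 FPKM). Mief2 was the lowest in every library, between 1.80 and 2.73 FPKM, and Oma1 and Mief1 held the places just above it. The order in between was not fixed. In Ctrl, Mtfr1 was 4th at 21.3 FPKM, Mfn2 5th at 21.2 FPKM and Dnm1l 6th at 19.6 FPKM, values too near to each other to be ordered without replicates. In PGC-A and PGC-OGD, Dnm1l was 2nd, and Mtfr1 was 7th in each of the 3 libraries other than Ctrl.

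**Figure D1:**
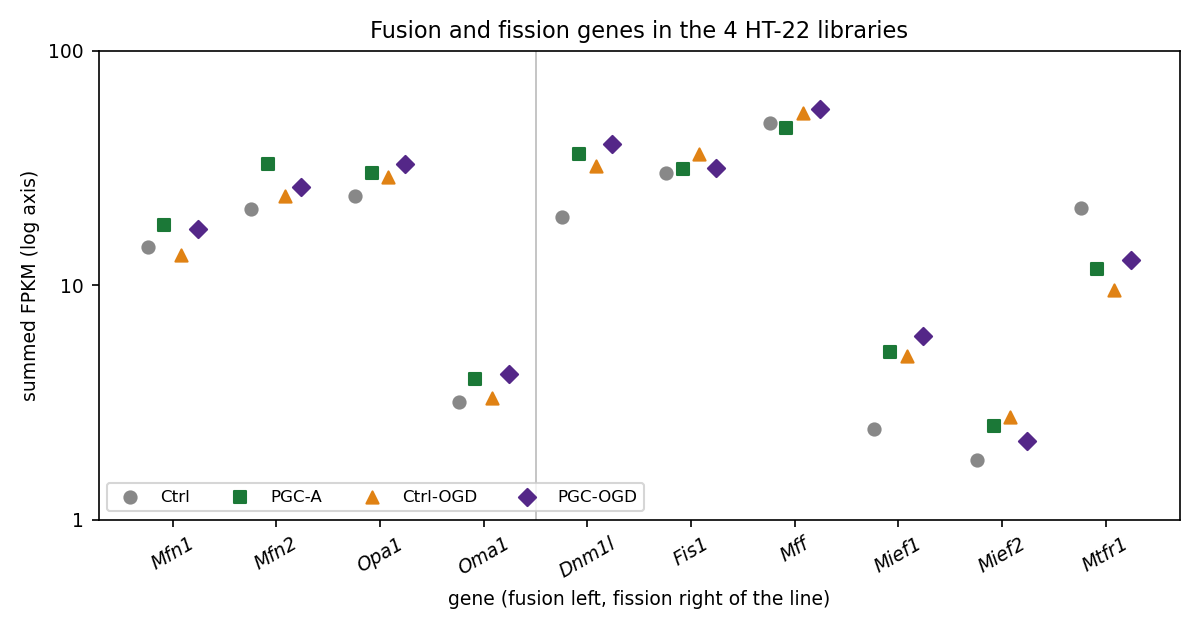
Summed FPKM on a log axis of the 10 fusion and fission genes, with 1 point per library and no error, since each group has 1 library. Mff is highest and Mief2 lowest in each library on these sums, which for Mff include transcripts with an incomplete coding region. The Ctrl point is the lowest of its gene for every member but Mfn1, Mff and Mtfr1, and for Mtfr1 it is the highest.

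To compare conditions, the deposited transcripts of a gene were summed and the difference of log2(FPKM + 1) was taken, which understates the change of genes near 1 FPKM. A gene was called where the difference reached 1.5-fold, the fold criterion of the study, which is 0.58 on the log2 scale. In PGC-A against Ctrl, Mfn2, Dnm1l and Mief1 were called higher and Mtfr1 lower, 4 of 10 members. Of all compared genes, 10.5% were called, 4.91% as higher and 5.63% as lower. The median log2 difference of the members was 0.30, beside -0.03 for all genes, and 8 of 10 were above 0. In Ctrl-OGD against Ctrl, Dnm1l and Mief1 were called higher and Mtfr1 lower, 3 of 10, beside 13.9% of all genes (6.20% higher and 7.71% lower). The median was 0.22, beside -0.02, and 8 of 10 were again above 0. The 2 comparisons use the same Ctrl library, so that a Ctrl value that is high or low for any reason moves both in the same direction.

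Neither of the other 2 comparisons called a member. In PGC-OGD against Ctrl-OGD, the log2 differences ranged from -0.24 to 0.39, with a median of 0.21 beside -0.01 for all genes, of which 6.90% were called (3.08% higher and 3.82% lower). In PGC-OGD against PGC-A, they ranged from -0.32 to 0.27, with a median of 0.09 beside 0.00, and 9.03% of all genes were called (3.82% higher and 5.22% lower). With 10 members, a count of 0 is within 1 gene of those shares.

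A sum of FPKM gives a short transcript more weight than its fragments have. Each value was therefore also multiplied by the transcript length in kilobases before summing, which gives a value that follows the number of fragments (length-weighted level, in FPKM times kilobases). This measure was added after the values were seen. On it, Mfn2, Dnm1l and Mief1 stayed past 1.5-fold in PGC-A against Ctrl and Mtfr1 did not (3 of 10, beside 12.1% of all genes, 5.49% higher and 6.65% lower). Dnm1l and Mief1 stayed past it in Ctrl-OGD against Ctrl (2 of 10, beside 16.5%, 6.91% higher and 9.59% lower), Mief1 passed it in PGC-OGD against Ctrl-OGD (1 of 10, beside 7.68%, 3.44% higher and 4.23% lower), and no member did in PGC-OGD against PGC-A (0 of 10, beside 10.6%, 4.34% higher and 6.28% lower).

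**Figure D2:**
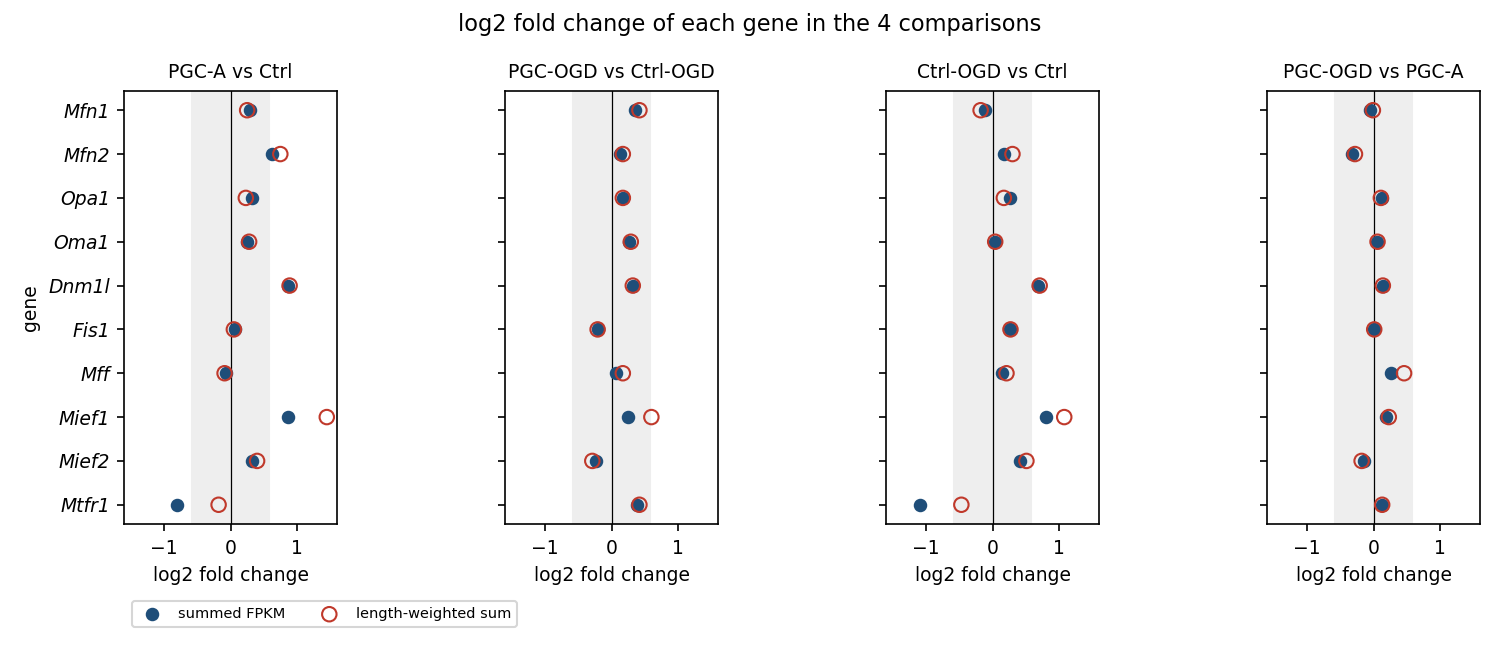
The log2 difference of each member in the 4 comparisons, from summed FPKM (filled) and from the length-weighted sum (open), with the range within 1.5-fold shaded. Outside the shading in PGC-A against Ctrl are Mfn2, Dnm1l and Mief1 on both measures and Mtfr1 at -0.81 on the summed FPKM alone, and in PGC-OGD against PGC-A all points lie within it.

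Mfn1 (ENSMUSG00000027668, chr3:32529465-32579239, plus strand, GRCm38) encodes mitofusin 1, which tethers and fuses outer membranes. Its summed FPKM was 14.6 in Ctrl, 18.1 in PGC-A, 13.4 in Ctrl-OGD and 17.3 in PGC-OGD. Both PGC-1α libraries were above both control libraries. The log2 difference was 0.29 without OGD and 0.35 after OGD, both within 1.5-fold, and OGD differed by -0.12 in control cells and -0.06 in PGC-1α cells. The full-length transcript Mfn1-201 held at least 92.8% of the level in every library.

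Mfn2 (ENSMUSG00000029020, chr4:147873599-147904704, minus strand) encodes mitofusin 2, which also links mitochondria to the endoplasmic reticulum. The summed level was 21.2 FPKM in Ctrl, 33.0 in PGC-A, 23.9 in Ctrl-OGD and 26.2 in PGC-OGD. PGC-A stood above the other 3 libraries. The log2 difference was 0.62 without OGD, past 1.5-fold, and 0.12 after OGD, which is 0.49 less, a difference that cannot be tested with 1 library per group. The excess of PGC-A lay in Mfn2-203, which had 11.1, 24.4, 11.3 and 11.2 FPKM in Ctrl, PGC-A, Ctrl-OGD and PGC-OGD. Mfn2-204 had 3.55, 4.0, 6.75 and 7.5 FPKM, and Mfn2-201 had 0.835, 0.638, 2.82 and 5.23 FPKM, both higher in the OGD libraries. These 3 transcripts have the same coding length of 2271 bases, so a shift between them would leave the length of the protein as it is. Mfn2-202, with a coding length of 1815 bases, was lower in each library than in Ctrl, with 3.94, 2.51, 1.80 and 1.07 FPKM.

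The 2 mitofusins together had 35.8 FPKM in Ctrl, 51.1 in PGC-A, 37.3 in Ctrl-OGD and 43.5 in PGC-OGD. The ratio of Mfn1 to Mfn2 was 0.690, 0.547, 0.558 and 0.659 in the same order, so that Mfn2 was the higher mitofusin throughout.

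Opa1 (ENSMUSG00000038084, chr16:29579334-29654884, plus strand) encodes the dynamin-like GTPase of the inner membrane. Opa1 summed to 23.9 FPKM in Ctrl, 30.1 in PGC-A, 29.0 in Ctrl-OGD and 32.8 in PGC-OGD. Ctrl was the lowest and PGC-OGD the highest, with log2 differences of 0.32 and 0.17 for PGC-1α without and after OGD and of 0.27 and 0.12 for OGD in control and PGC-1α cells, all within 1.5-fold. The main transcript, Opa1-206, lacks the 54-base and the 111-base exons printed above and held 91.8% of the level in Ctrl and between 83.7% and 84.6% in the other 3 libraries. Opa1-208, an annotated internal fragment of 888 bases that holds both exons, had 1.95 FPKM in Ctrl, 4.65 in PGC-A, 4.60 in Ctrl-OGD and 5.34 in PGC-OGD. It was the lowest in Ctrl and alike in the other 3. Since no deposited transcript with a complete coding region carries these exons, its share does not give the share of whole Opa1 mRNA that includes them.

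Oma1 (ENSMUSG00000035069, chr4:103313812-103371868, plus strand) encodes the protease that cleaves OPA1 when the membrane potential is lost. Its FPKM, from 1 transcript, was 3.19 in Ctrl, 3.98 in PGC-A, 3.30 in Ctrl-OGD and 4.16 in PGC-OGD. Like Mfn1, it was higher in both PGC-1α libraries than in both control libraries, by log2 differences of 0.25 and 0.26 without and after OGD, within 1.5-fold. OGD differed by 0.04 and 0.05. The ratio of Opa1 to Oma1 lay between 7.48 and 8.78.

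Dnm1l (ENSMUSG00000022789, chr16:16312230-16358959, minus strand) encodes DRP1, the GTPase that constricts mitochondria. Summed over transcripts, it had 19.6 FPKM in Ctrl, 36.4 in PGC-A, 32.1 in Ctrl-OGD and 40.2 in PGC-OGD. Ctrl stood apart below the other 3 libraries. The log2 difference was 0.86 for PGC-1α without OGD and 0.69 for OGD in control cells, both past 1.5-fold, and 0.32 for PGC-1α after OGD and 0.14 for OGD in PGC-1α cells, both within it. Relative to Opa1, Dnm1l was at a ratio of 0.820 in Ctrl and between 1.11 and 1.23 in the other 3, so that the fission GTPase was below the inner membrane fusion GTPase in Ctrl only among these 4 libraries.

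In GENCODE M21, the 3 deposited Dnm1l transcripts have complete coding regions and differ by the exons printed above. Dnm1l-203 differs by more than these, since its coding length is 1761 bases beside 2097 in Dnm1l-201 and 2136 in Dnm1l-202. The deposited versions of all 3 differ from those in GENCODE M21, so the deposited models may not have these exons and lengths. Dnm1l-201, without any of the 3 exons, had 11.6, 29.4, 19.2 and 26.0 FPKM in Ctrl, PGC-A, Ctrl-OGD and PGC-OGD, and carried most of the difference. Dnm1l-202, with the 39-base exon that is known to be included mainly in neurons, had 4.68, 2.61, 7.43 and 8.10 FPKM, which was 24.0%, 7.18%, 23.2% and 20.2% of the gene. PGC-A was thus the library in which this form was lowest, both as a level and as a share, while the sum was higher than in Ctrl. Dnm1l-203, with the 78-base and the 33-base exons, held between 12.2% and 17.1% of the gene in all 4 libraries.

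Fis1 (ENSMUSG00000019054, chr5:136953275-136966234, plus strand) encodes a small adaptor anchored in the outer membrane. The libraries had 30.1 FPKM in Ctrl, 31.4 in PGC-A, 36.3 in Ctrl-OGD and 31.6 in PGC-OGD. Ctrl-OGD was the highest, and the other 3 lay between 30.1 and 31.6 FPKM. The log2 difference was 0.06 and -0.20 for PGC-1α without and after OGD, and 0.27 and 0.01 for OGD in control and PGC-1α cells, all within 1.5-fold. Fis1-201 held between 73.7% and 76.6% of the level in each library, the steadiest make-up of the members with more than 2 transcripts.

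Mff (ENSMUSG00000026150, chr1:82724890-82752394, plus strand) encodes the mitochondrial fission factor, which recruits DRP1. Its level summed to 49.3 FPKM in Ctrl, 46.8 in PGC-A, 54.3 in Ctrl-OGD and 56.7 in PGC-OGD. The OGD libraries were above both others, by log2 differences of 0.14 in control and 0.27 in PGC-1α cells, and PGC-1α differed by -0.07 without OGD and 0.06 after it. The steady sum covered unequal transcripts. Mff-208, with the 60-base exon, had 2.54 FPKM in Ctrl, 1.45 in PGC-A, 5.20 in Ctrl-OGD and 19.7 in PGC-OGD, which was 5.16%, 3.11%, 9.57% and 34.8% of the gene. In PGC-OGD it was the highest of the 9 deposited Mff transcripts, with a log2 difference of 3.08 to PGC-A and 1.74 to Ctrl-OGD, the largest positive difference of the 27 member transcripts compared, in any of the 4 comparisons.

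In the same library other Mff transcripts were low. Mff-202, with the 159-base and the 60-base exons, had 7.74, 9.62, 9.15 and 5.33 FPKM. Mff-206, whose coding region is annotated as incomplete, had 7.57, 5.65, 9.72 and 1.95 FPKM. Over the 6 complete transcripts, those with the 60-base exon held 54.2% in Ctrl, 60.0% in PGC-A, 63.2% in Ctrl-OGD and 70.4% in PGC-OGD, and those with the 159-base exon held 34.2%, 47.0%, 35% and 15%. Over all 8 transcripts that span the site, the shares were 29.5%, 30.9%, 34.6% and 51.0% for the 60-base exon and 35.3%, 37.1%, 37.9% and 14.6% for the 159-base exon. On both, PGC-OGD had the highest share with the former exon and the lowest with the latter. The exons are not alternatives, since the complete transcripts with the 159-base exon also carry the 60-base exon, and the shares overlap. Of the complete transcripts with the 60-base exon, only Mff-208 was highest in PGC-OGD. Mff-201, Mff-202 and Mff-212 were each lowest there, at 1.23, 5.33 and 0.364 FPKM. Transcripts with an incomplete coding region took between 33.3% and 51.6% of the gene, and without them Mff had 24.6, 22.6, 28.4 and 37.8 FPKM, which puts PGC-OGD past 1.5-fold above PGC-A.

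Mief1 (ENSMUSG00000022412, chr15:80234018-80253371, plus strand) encodes MiD51, an outer membrane receptor of DRP1. Although low, it differed between libraries, with 2.43 FPKM in Ctrl, 5.21 in PGC-A, 4.98 in Ctrl-OGD and 6.08 in PGC-OGD. As with Dnm1l, Ctrl was below the other 3. The log2 difference was 0.86 for PGC-1α without OGD and 0.80 for OGD in control cells, both past 1.5-fold, and 0.25 for PGC-1α after OGD and 0.19 for OGD in PGC-1α cells. Mief1-201, of 5148 bases, had 0.948, 4.91, 2.66 and 5.83 FPKM, and Mief1-202, of 2712 bases, had 1.48, 0.303, 2.32 and 0.251 FPKM. The long form thus held 94.2% and 95.9% of the gene in the PGC-1α libraries, but 39.0% and 53.4% in Ctrl and Ctrl-OGD. Both transcripts have the same coding length of 1389 bases. The deposited version of Mief1-201 differs from that in GENCODE M21, so the length used for it may not be that of the deposited model. Weighted by length, Mief1 had a level of 8.90, 26.1, 20.0 and 30.7, with log2 differences of 1.45 and 0.60 for PGC-1α without and after OGD and of 1.08 and 0.23 for OGD.

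A small annotated gene, AC140267.1, lies on the same strand and shares all its 213 bases with both Mief1 transcripts, so reads from these bases could be assigned to either. It had 12 FPKM in Ctrl, 9.55 in PGC-A, 9.11 in Ctrl-OGD and 13.5 in PGC-OGD. Adding its fragments to those of Mief1 gave a length-weighted level of 11.5, 28.1, 21.9 and 33.6, with log2 differences of 1.23, 0.59, 0.88 and 0.25 for PGC-1α without OGD, PGC-1α after OGD, OGD in control cells and OGD in PGC-1α cells. The pattern of Mief1 was thus as before with these bases counted together.

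Mief2 (ENSMUSG00000018599, chr11:60728398-60732951, plus strand) encodes MiD49, the paralog of MiD51. Its FPKM, from 1 transcript, was 1.80 in Ctrl, 2.50 in PGC-A, 2.73 in Ctrl-OGD and 2.16 in PGC-OGD. The libraries with both treatments or neither were below those with 1 treatment. The log2 differences were 0.32 and -0.24 for PGC-1α without and after OGD and 0.41 and -0.15 for OGD in control and PGC-1α cells, all within 1.5-fold, although with a pseudocount of 0.01 the difference for OGD in control cells was 0.60 and passed it. The ratio of Mief1 to Mief2 was 1.35 in Ctrl, 2.09 in PGC-A, 1.82 in Ctrl-OGD and 2.82 in PGC-OGD.

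Mtfr1 (ENSMUSG00000027601, chr3:19187327-19220817, plus strand) encodes mitochondrial fission regulator 1, a mitochondrial protein whose excess fragments the network. Its summed FPKM was 21.3 in Ctrl, 11.7 in PGC-A, 9.52 in Ctrl-OGD and 12.8 in PGC-OGD. Ctrl stood above the other 3, with log2 differences of -0.81 for PGC-1α and -1.09 for OGD, both past 1.5-fold, and of 0.39 for PGC-1α after OGD. The lower sum rests on Mtfr1-203, of 1367 bases, which had 14.9 FPKM in Ctrl and is listed at 0 in the other 3 libraries. Mtfr1-204, of 2953 bases, had 6.44 FPKM in Ctrl, 11.7 in PGC-A, 9.52 in Ctrl-OGD and 12.8 in PGC-OGD, and was thus lowest where the sum was highest. Both have a coding length of 984 bases. Weighted by length, Mtfr1 had a level of 39.4, 34.6, 28.1 and 37.8, with log2 differences of -0.18 and -0.47 for PGC-1α and OGD, within 1.5-fold. A lower level of the gene and another assignment of fragments between the 2 transcripts cannot be told apart from these values.

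**Figure D3:**
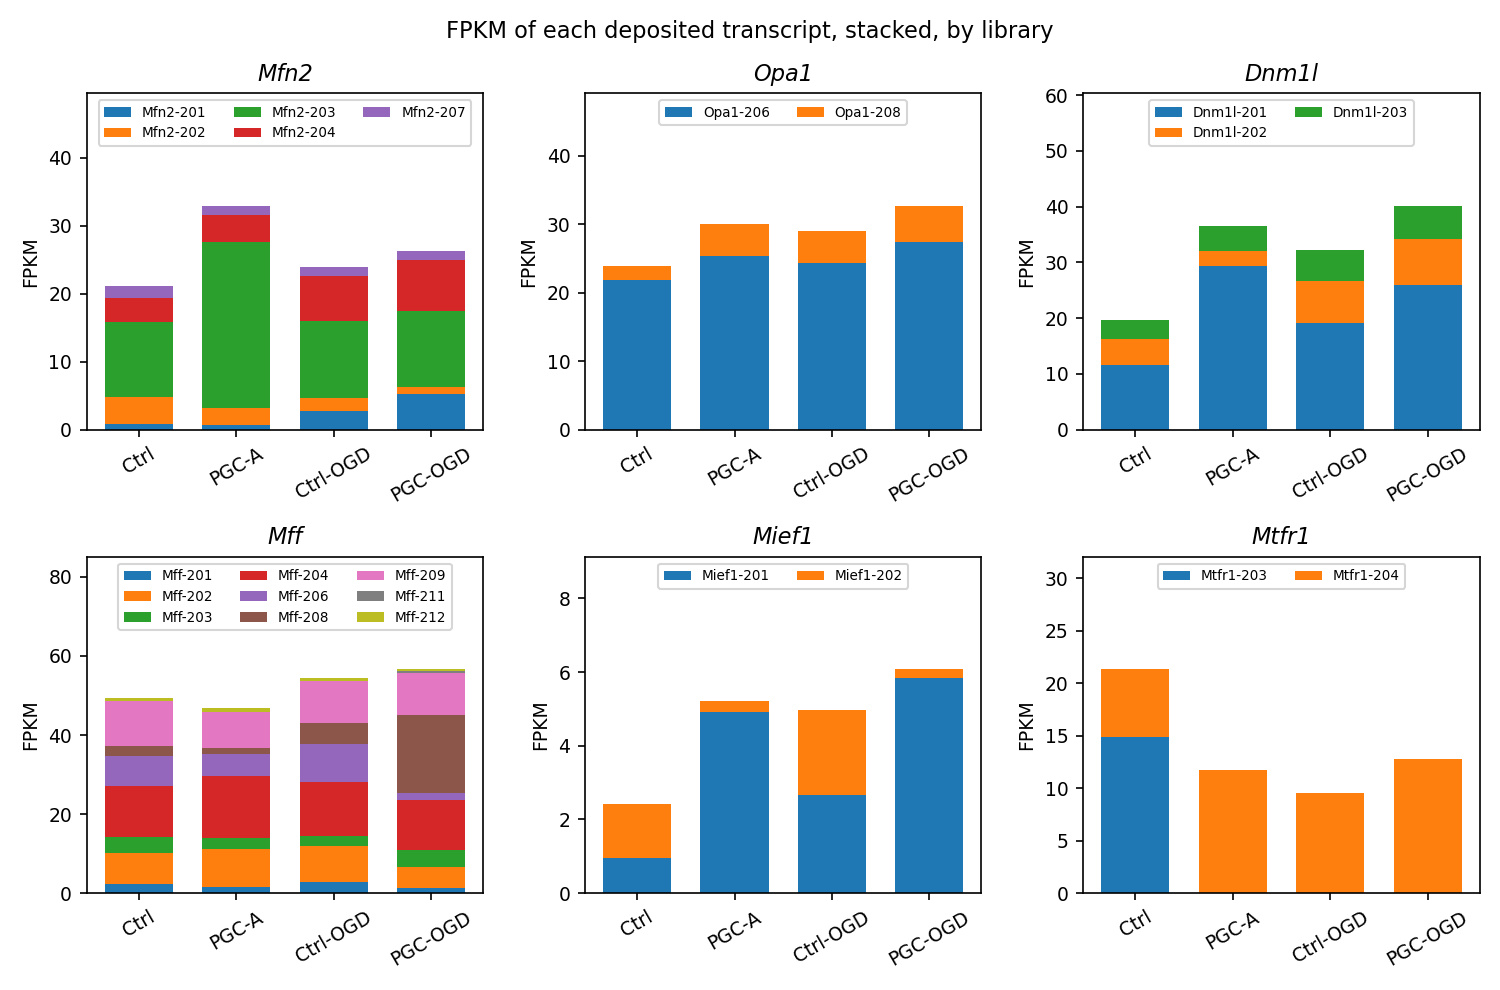
FPKM of each deposited transcript, stacked for each library, for 6 of the 8 members with 2 or more transcripts. The blue part of Mtfr1, 14.9 FPKM of Mtfr1-203, is seen in Ctrl alone, the brown part of Mff, Mff-208, reaches 19.7 FPKM in PGC-OGD, and the green part of Mfn2, Mfn2-203, reaches 24.4 FPKM in PGC-A.

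Of the 30 deposited member transcripts, all annotated as protein coding, 27 had a mean of at least 1 FPKM. Among these, 5 were called higher and 3 lower in PGC-A against Ctrl, beside 25.4% of all compared transcripts (12.3% higher and 13.1% lower). The counts were 5 and 4 in PGC-OGD against Ctrl-OGD (22.3% of all transcripts, 11.2% and 11.1%), 7 and 2 in Ctrl-OGD against Ctrl (28.1%, 13.4% and 14.7%) and 4 and 4 in PGC-OGD against PGC-A (25.3%, 12.2% and 13.1%). The 27 transcripts come from 10 genes and share fragments within a gene, so that these counts are a description. Values of single transcripts are estimates that can trade fragments with the other transcripts of the gene, and their precision is unknown.

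The 3 fusion genes and Oma1, whose protease limits fusion, had a median log2 difference of 0.31 in PGC-A against Ctrl, with 4 of 4 above 0, and of 0.22 in PGC-OGD against Ctrl-OGD, again with 4 of 4 above 0. The 6 fission genes had medians of 0.19 and 0.15, with 4 of 6 above 0 in each. For OGD, the former 4 had a median of 0.10 in control cells and the fission genes one of 0.34, and in PGC-1α cells the medians were 0.00 and 0.13. In both comparisons against Ctrl, the members with the largest positive differences, Dnm1l and Mief1, and the one with the largest negative difference, Mtfr1, were fission genes. In the other 2 comparisons this was not so, with Mtfr1 the highest and Mief2 the lowest in PGC-OGD against Ctrl-OGD, and Mff the highest and Mfn2 the lowest in PGC-OGD against PGC-A.

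The 2 members with the widest range of log2(FPKM + 1) over the libraries were Mtfr1, with 1.09, and Mief1, with 1.05, ahead of Dnm1l with 1.00. The range of Mtfr1, and with it the profile compared below, rests on Mtfr1-203, which had 14.9 FPKM in Ctrl and is listed at 0 elsewhere. Weighted by length, Mtfr1 differed from Ctrl by -0.18 in PGC-A and -0.47 in Ctrl-OGD. Genes of 5 FPKM or more on average were ordered by the distance between centred profiles over the 4 libraries. The profile nearest to that of Mtfr1 was Morf4l2, at a distance of 0.08, followed by Mknk1 at 0.14 and Chst15 at 0.16, with 17 of 8217 genes within 0.25. The profile nearest to that of Mief1 was Apc, at 0.07, followed by Sec11c at 0.08 and another member, Dnm1l, at 0.10, with 51 of 8218 genes within 0.25. With 4 points, this is a description.

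The genes around the fusion and fission machinery were taken from 6 lists with 50 genes, of which 46 were compared. In PGC-A against Ctrl, 3 were called higher, 1 lower, and 32 were above 0, with a median of 0.17. The counts were 0 and 1 in PGC-OGD against Ctrl-OGD with a median of 0.04, 2 and 1 in Ctrl-OGD against Ctrl with 0.09, and 1 and 2 in PGC-OGD against PGC-A with -0.01. The shares of genes called were thus no higher than those of all genes, and the medians stood between those of the members and those of all genes in the first 3 comparisons.

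The 8 genes of the MICOS complex, which shapes cristae junctions, and of its outer membrane partner had the highest list median in PGC-A against Ctrl, 0.49, with 7 of 8 above 0. Apoo, which encodes a MICOS subunit, had 17.7 FPKM in Ctrl, 32.8 in PGC-A, 26.5 in Ctrl-OGD and 35.4 in PGC-OGD, with a log2 difference of 0.86 for PGC-1α without OGD. Immt, which encodes mitofilin, the core subunit, had 61.0, 88.6, 41.3 and 50.0 FPKM, and was called lower in PGC-OGD than in PGC-A, at -0.81. Both OGD libraries were below both others for this gene, unlike for any of the fusion and fission genes.

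Among the 7 genes that process or scaffold OPA1 at the inner membrane, 2 were called higher in PGC-A and the same 2 in Ctrl-OGD, each against Ctrl, where 4.91% and 6.20% of all genes were called higher. Parl, an inner membrane rhomboid protease, had 8.02, 14.4, 15.7 and 19.5 FPKM in Ctrl, PGC-A, Ctrl-OGD and PGC-OGD, with log2 differences of 0.77 and 0.89. Phb, which encodes the scaffold protein prohibitin, had 22.8, 36.9, 36.8 and 38.3 FPKM, with 0.67 in both. Ctrl was the lowest library for both genes, as it was for every member but Mfn1, Mff and Mtfr1.

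The other outer membrane and cytosolic factors had 9 of 12 genes compared, with a median of 0.26 in PGC-A against Ctrl. None of the 9 was called in any comparison, beside between 6.90% and 13.9% of all genes. The 7 of 8 compared ubiquitin and mitophagy factors had a median of 0.16 in PGC-A against Ctrl and of -0.34 in PGC-OGD against PGC-A, where Bnip3, a mitophagy receptor induced by hypoxia, was called lower. It had 73.7 FPKM in Ctrl, 82.5 in PGC-A, 78.3 in Ctrl-OGD and 53.2 in PGC-OGD, with a log2 difference of -0.62. PGC-OGD was the lowest library for this gene. The 11 kinases, phosphatases and SUMO proteases that act on DRP1 had a median of 0.11 in PGC-A against Ctrl and of -0.07 in PGC-OGD against Ctrl-OGD. None of the 11 was called in PGC-A against Ctrl, beside 10.5% of all genes.

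Of the 4 transport adaptors, which couple mitochondria to motors, Trak1 had 21.3 FPKM in Ctrl, 11.0 in PGC-A, 19.4 in Ctrl-OGD and 19.3 in PGC-OGD, and was called lower in PGC-A than in Ctrl, at -0.89, and higher in PGC-OGD than in PGC-A, at 0.76. Rhot2, which encodes the outer membrane GTPase Miro2, had 6.29, 5.64, 3.31 and 3.82 FPKM, with a log2 difference of -0.76 for OGD in control cells. PGC-A was the low library for Trak1 and the OGD libraries were low for Rhot2.

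**Figure D4:**
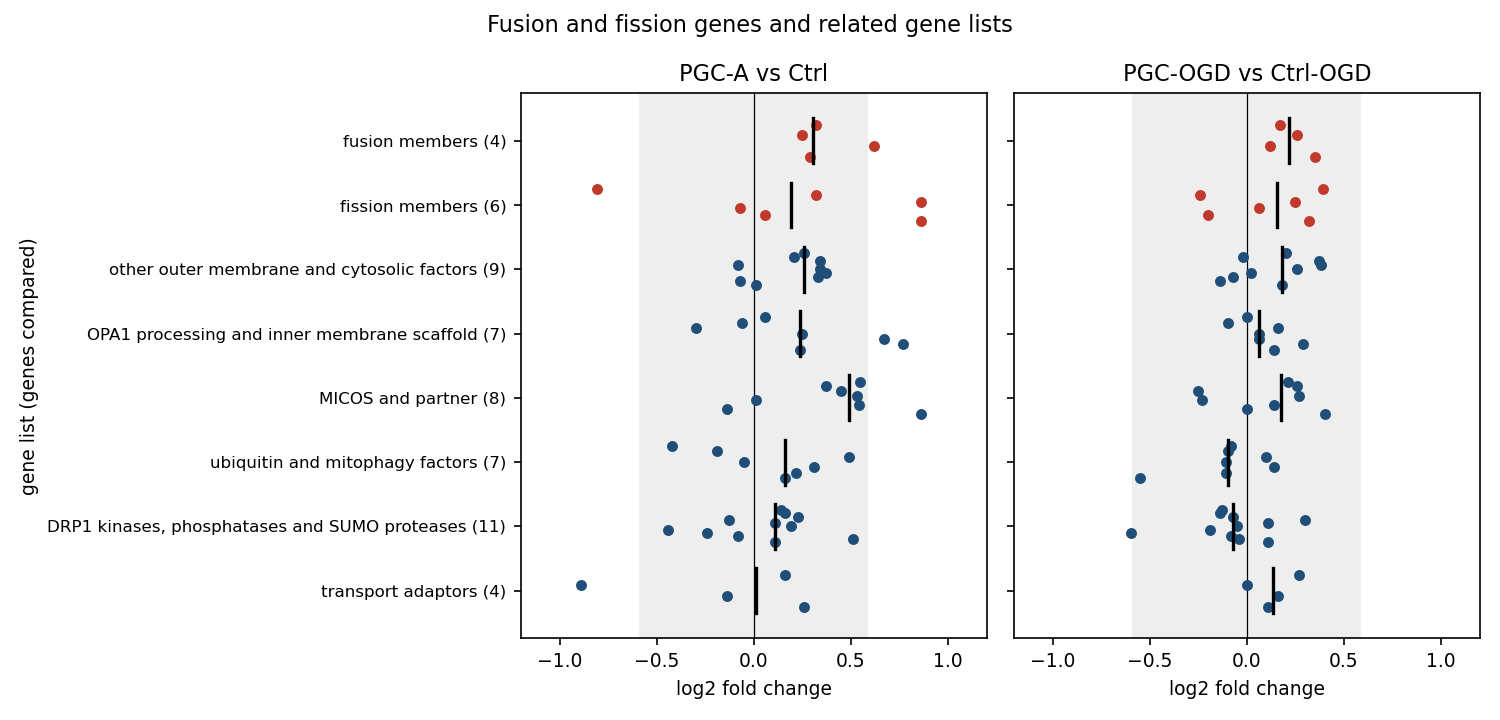
The log2 difference of each gene in PGC-A against Ctrl and in PGC-OGD against Ctrl-OGD, for the fusion and fission genes (red) and 6 lists of related genes (blue), with the list median as a bar and the range within 1.5-fold shaded. The medians run from 0.01 for the transport adaptors to 0.49 for MICOS in the former comparison and from -0.10 to 0.22 in the latter.

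Promoters were read for motifs of factors through which PGC-1α is known to act. RefSeq promoter sequences (GRCm38.p6) were found for 9 of the 10 members by symbol, all but Mtfr1, and the 250 bases before each start were searched on both strands. The core of the NRF1 motif, CGCATGCG, was found in Opa1, between 51 and 58 bases before the start, and in 1.75% of 27025 genes. The GABP motif CCGGAAGT was found in Fis1, Mfn1 and Mief1, and in 3.23% of all genes. The ERR motif TNAAGGTCA was found in none of the 9, and in 1.30% of all genes. The motifs share no bases in these promoters. The 100 bases before the start of Opa1 and Fis1 are shown, with the motif in capitals, as 1 example of each motif found.
Opa1 (chr16:29579234-29579333, plus strand): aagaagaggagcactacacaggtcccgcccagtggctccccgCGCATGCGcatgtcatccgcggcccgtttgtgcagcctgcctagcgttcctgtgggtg
Fis1 (chr5:136953175-136953274, plus strand): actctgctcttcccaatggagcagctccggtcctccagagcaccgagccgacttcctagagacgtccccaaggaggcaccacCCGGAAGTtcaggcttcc
Of the 3 members called higher in PGC-A, Mief1 held a GABP motif, and Mfn2 and Dnm1l held none of the 3 motifs in this window. A match of letters is a description of the sequence and not evidence of binding.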

How the data were processed

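The authors prepared stranded poly(A) libraries, sequenced them from both ends and aligned the reads to GRCm38, with HISAT2 2.1.0 named in the submitters' processing notes. The authors deposited 1 table of values per transcript, taken here as FPKM although neither the table nor the methods name the unit, with column totals from 331892 to 353381. The quantification program and annotation are not given in the sources used here. Of 25889 transcripts, 25822 (99.7%) were matched to GENCODE M21 without version, and 67 were left out. Depth per library is unknown, so no interval can be given.

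FPKM was summed per gene symbol, transformed as log2(FPKM + 1) and compared where the mean was at least 1. The named genes are the 10 members with all transcripts, Ppargc1a, Esrra, list genes past 1.5-fold (at most 3 per list and comparison, 1 of which is not reported here) and the 3 nearest profiles of the 2 widest members. No test was run, since each group had 1 library. The members and lists were chosen with earlier results of these data known. Alternatives were pseudocounts of 0.1 and 0.01, no filter, a mean of at least 5, median ratio, upper quartile and common total scaling, the highest transcript and 2-fold. The length-weighted sum and the use of complete coding regions were added after the data were seen. Values were computed in Python 3.11.15 with pandas 2.3.3 and numpy 2.4.6 and drawn with matplotlib 3.10.9, after the steps had been tested on simulated data with 200 changed genes.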

Additional observations from a re-analysis of the deposited data

Results flagged for a closer look

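Several members had differences of opposite sign in the paired comparisons. With 1 library per group the difference between them was not tested. In all of them but Mtfr1, both values were within 1.5-fold, where a change of sign needs little. For PGC-1α without and after OGD, the log2 differences were 0.06 and -0.20 in Fis1 (a difference of -0.26), -0.07 and 0.06 in Mff (0.14), 0.32 and -0.24 in Mief2 (-0.56) and -0.81 and 0.39 in Mtfr1 (1.21). For OGD in control and PGC-1α cells, they were 0.17 and -0.32 in Mfn2 (-0.49), 0.41 and -0.15 in Mief2 (-0.56) and -1.09 and 0.12 in Mtfr1 (1.21). In Mtfr1, 1 transcript that is listed at 0 outside Ctrl carries the change, as described above.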

How the results depend on the processing

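The median log2 difference of the members moved by less than 0.1 in each comparison under each alternative that was run. Of 428 log2 differences of single members, 413 kept their call, 5 were called anew and 8 were no longer called. Of these 8, 6 were at 2-fold, where the values stayed and only the threshold rose. Of the 428, 11 changed sign, 9 of them within 1.5-fold (at most 0.27 in size on the sum) and 2 from a called value. The highest transcript gave 8 of the 11, common total scaling 2 (Oma1 in Ctrl-OGD against Ctrl, Fis1 in PGC-OGD against PGC-A) and complete coding regions 1. Median ratio, upper quartile and common total scaling moved no call. Each multiplies all values of a library by 1 factor, so it cannot change the order of the members within a library. With the highest transcript in place of the sum, Mtfr1 changed from -0.81 to 0.77 in PGC-A against Ctrl and from -1.09 to 0.50 in Ctrl-OGD against Ctrl, and its difference of PGC-1α effects changed from 1.21 to -0.38, because that transcript is Mtfr1-204. The number of members called changed from 4 to 0 in PGC-A against Ctrl and from 3 to 1 (Mtfr1) in Ctrl-OGD against Ctrl at 2-fold. The latter count was 4 with a pseudocount of 0.01, where Mief2 passed, beside 19.1% of all genes. It was 2 with the highest transcript (beside 20.0%) and with the length-weighted sum (beside 16.5%), where Mtfr1 did not pass. It was also 2 with a mean of at least 5, which left out Mief1, beside 12.3%. In PGC-OGD against Ctrl-OGD, the count changed from 0 to 1 (Mief1) with the highest transcript (beside 13.1%) and with the length-weighted sum (beside 7.68%). In PGC-OGD against PGC-A, it changed from 0 to 1 with the highest transcript (Mfn2, lower, beside 16.2%). The same change came with complete coding regions (Mff, higher, beside 9.77%). Of all genes, in the order PGC-A against Ctrl, PGC-OGD against Ctrl-OGD, Ctrl-OGD against Ctrl and PGC-OGD against PGC-A, 10.5%, 6.90%, 13.9% and 9.03% were called on the sum, 3.0%, 2.09%, 3.43% and 2.86% at 2-fold, and 17.1%, 13.1%, 20.0% and 16.2% with the highest transcript. A mean of at least 5 left 7 members. No paired analysis was possible because each group had 1 library. Unknown depth leaves the precision of every value open, most of all for Mief1, Mief2 and Oma1, the lowest members.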
